A study of Mus musculus with 10 samples.

Results

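Germ cells of Taf4b-deficient mouse fetuses were compared with those of Taf4b-heterozygous fetuses, over 8 of the 10 RNA-seq libraries in the series: 4 Taf4b-deficient and 4 Taf4b-heterozygous, chosen by the genotype in their labels. The other 2 libraries are Taf4b-wildtype and serve here as outside points of reference; in the fit they also took part in the filter on low counts, the scaling and the estimate of spread. All were female germ cells of embryonic day E14.5, labelled strain C57BL/6, and the parents carried an Oct4-EGFP transgene on both chromosomes (stock B6;129S4-Pou5f1tm2Jae/J) and 1 mutated copy of Taf4b. Every group therefore carries the reporter, and cells were taken from dissociated gonads by fluorescence-activated sorting for GFP. The labels call deficient animals infertile and heterozygous animals fertile. They do not say which part of Taf4b is removed, nor whether each library is a separate animal, and the p-values then reflect only how much these libraries vary, which may be technical. Deficient replicates 1 and 2 and heterozygous replicate 4 share the litter date January 29, deficient replicate 3 is of March 1, and deficient replicate 4 and heterozygous replicates 1 to 3 share March 7. Totals ran from 31867705 to 37739826 counted reads in deficient libraries and from 28949924 to 44166320 in heterozygous libraries.

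Taf4b encodes a gonad-enriched paralogue of a TFIID subunit. TFIID recognises core promoters and helps to load RNA polymerase II, and female mice that lack TAF4b lose oocytes early and are infertile. At this age ovarian germ cells stop dividing, switch off pluripotency genes such as Pou5f1 and Nanog under the influence of retinoic acid and BMP signals, switch on Stra8, and begin meiotic recombination. Cells of 1 ovary are not synchronous, so a bulk library averages over several meiotic stages. In bulk samples, fewer cells of a type and less RNA per cell cannot be told apart.

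Heterozygous replicate 1 stood apart from its group before any comparison of genotypes. The meiotic recombination genes averaged 5.45, 5.85, 4.53 and 5.18 log2 CPM (counts scaled to the size of the library) in deficient replicates 1 to 4, against 4.34, 6.38, 6.10 and 6.15 in heterozygous replicates 1 to 4. The pluripotency and early germ cell genes averaged 5.30, 4.88, 5.97 and 5.47 in deficient libraries, against 5.95, 4.66, 4.82 and 4.82 in heterozygous libraries. Heterozygous replicate 1 thus had the lowest recombination level of all 10 libraries and, beside deficient replicate 3, the highest pluripotency level, although it shares its litter date with heterozygous replicates 2 and 3. A stage score, the recombination mean minus the pluripotency mean, was 0.15, 0.98, -1.43 and -0.29 in deficient libraries, against -1.61, 1.72, 1.28 and 1.33 in heterozygous libraries and -0.14 and 0.17 in wildtype libraries. The mean score was -0.15 ± 1.00 over 4 deficient and 0.68 ± 1.54 over 4 heterozygous libraries (SD), a difference of -0.83 that was smaller than the spread (two-sided exact permutation p = 0.371 over 70 arrangements). Without heterozygous replicate 1 the difference was -1.59, and every deficient library lay below the 3 heterozygous libraries. The exact two-sided permutation p was then 0.0571, the smallest that 4 against 3 allows. That library was treated separately because it is less advanced in meiosis, which is what the score measures. Leaving it out therefore widens the difference by choice, and no conclusion is drawn from that p-value. Leaving out deficient replicate 3 in place of heterozygous replicate 1 gave -0.40, and leaving out heterozygous replicate 2 gave -0.48.

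**Figure D1:**
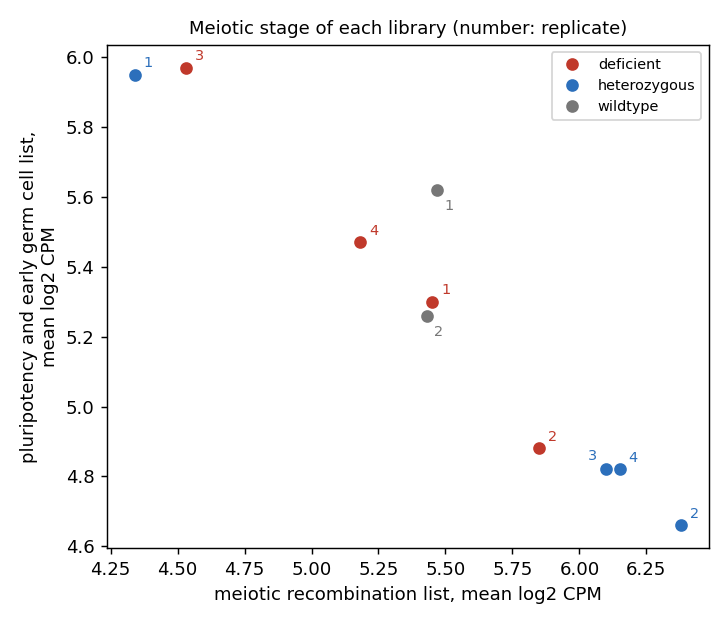
Each point is 1 library, placed by the mean log2 CPM of its meiotic recombination genes (x axis) and of its pluripotency and early germ cell genes (y axis), with the replicate number beside it. Heterozygous replicate 1 lies at 4.34 and 5.95, beside deficient replicate 3, while heterozygous replicates 2 to 4 lie at the other end and both wildtype libraries lie among the deficient ones.

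The targeted gene was lower in every deficient library. Taf4b (on the plus strand of GRCm38 chromosome 18, from 14783245 to 14900359) stood at 56.1, 62.1, 64.9 and 60.1 CPM in deficient libraries, against 144, 223, 195 and 234 CPM in heterozygous libraries. The groups did not overlap, and heterozygous replicate 1 was the lowest of its group. Wildtype libraries stood at 152 and 207 CPM, within the heterozygous range. The log2 fold change was -1.71 (SE 0.17, edgeR adjusted p = 0.0118) with all libraries and -1.80 (SE 0.13, adjusted p = 0.000723) without heterozygous replicate 1. Across all alternatives its adjusted p ran from 3.83e-15 to 0.111, and it missed the threshold of 0.05 when any 1 deficient library or heterozygous replicate 2 or 4 was left out (0.0587 to 0.0972). Of 100 tested genes within 10 Mb of Taf4b, 7 were lower without overlap between the groups, beside 2.66% of all genes tested, and 1 was higher, beside 3.31%. Without heterozygous replicate 1, 1 of the 100 was called, beside 2.6% of all genes. Such neighbours can come with the mutated chromosome, and whether that plays a part was not tested.

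Across all expressed genes the comparison called 3 genes at an adjusted p under 0.05, which is 0.0148% of the 20317 tested: 2 were higher (0.00984%) and 1, Taf4b itself, was lower (0.00492%). The higher genes were Gm8226, a processed pseudogene with means of 1.84 ± 0.154 CPM over the deficient and 0.350 ± 0.069 CPM over the heterozygous libraries, and Gm49450, a predicted gene that overlaps Tuba1a and Tuba1b, at 9.63 ± 0.914 and 3.15 ± 0.329 CPM (SD, n = 4 each). Their log2 fold changes were 2.38 and 1.61 with all libraries and 2.54 and 1.73 without heterozygous replicate 1, so both were as large without that library. Both wildtype libraries stood with the deficient ones, at 2.38 and 1.88 CPM for Gm8226 and at 12.4 and 8.23 CPM for Gm49450, and reads of a pseudogene or of overlapping genes are uncertain. In the TPM values the log2 fold change of Gm8226 was 0.61 (limma adjusted p = 0.133), and Gm49450 went the other way, at -1.46.

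Few genes passed that threshold, and the differences below it are given as counts. At an unadjusted p under 0.05, 977 genes (4.81% of those tested) were higher and 1444 (7.11%) were lower in deficient libraries, with median log2 fold changes of 0.51 and -0.97. The 4 deficient and 4 heterozygous libraries did not overlap in 672 genes higher (3.31%) and 541 genes lower (2.66%). Of all genes tested, 44.9% had a positive log2 fold change, and the median was -0.05. Without heterozygous replicate 1 these became 49.9% and 0.00. Of the 2421 genes at an unadjusted p under 0.05, 2343 had the same direction in the TPM values made by a separate tool, and 78 had the opposite one. At a pseudocount of 1, 1542 had an unadjusted limma p under 0.05 in that direction, and 0 were called. The TPM values come from the same libraries that selected these genes, so the shared direction is no independent check.

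Heterozygous replicate 1 reduced more of these differences than it enlarged. Without it, 929 of the 977 higher genes and 1186 of the 1444 lower genes kept an unadjusted p under 0.05, while 48 and 258 did not, 35 of the 258 because they were no longer tested. The change became larger in 858 of the 977 and in 967 of the 1444. Heterozygous replicate 1 lay between the other heterozygous libraries and the deficient mean in 730 of the higher genes, past the deficient mean in 70, and on the far side of the other heterozygous libraries in 177. Among the lower genes these counts were 737, 313 and 394.

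Without heterozygous replicate 1, 519 genes were called, 2.6% of the 19975 then tested: 306 rose (1.53%) and 213 fell (1.07%). Where a pair of log2 fold changes or medians is given for a gene or list, the first is from all libraries and the second without this library. Their adjusted p-values were close to the threshold, with a median of 0.0452 in a range of 0.000723 to 0.0499. The count depended on other libraries as strongly as on this one. Starting from the 9 libraries, leaving out also deficient replicate 1, 3 or 4 gave 1, 13 or 1 calls, leaving out heterozygous replicate 2 or 4 gave 1 each, and leaving out wildtype replicate 1 or 2 gave 1 and 3. Leaving out deficient replicate 2 or heterozygous replicate 3 as well gave 2080 and 1656 calls. With litter date as a term the count was 1, with the stage score as a covariate it was 0, and a fit of deficient and heterozygous libraries alone called 4. At an unadjusted p under 0.05 the stage covariate left 354 of the 519 genes, and the share over all genes is not given here. All 519 kept their direction, with medians of 0.56 among the higher and -0.71 among the lower genes. They were called in these same libraries, so the shared direction is no support. Every deficient stage score lay below those of heterozygous replicates 2 to 4, so stage and genotype cannot be told apart there.

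**Figure D2:**
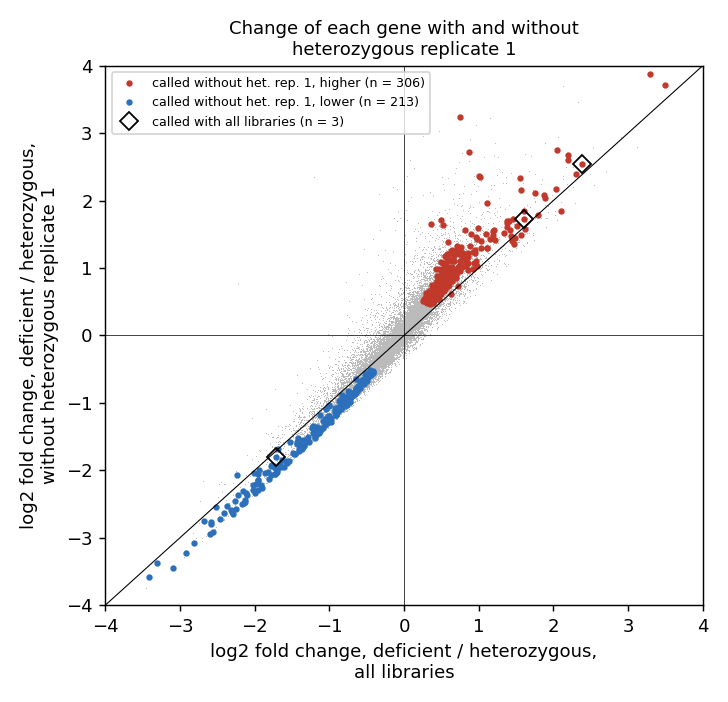
Each point is 1 gene, with its log2 fold change of deficient over heterozygous libraries from all libraries (x axis) and without heterozygous replicate 1 (y axis). Red and blue mark the 306 genes higher and 213 genes lower called without that library, most of which lie farther from 0 on the y axis, and diamonds mark the 3 genes called with all libraries.

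Heterozygous replicate 1 and the wildtype libraries stood outside the contrast that called these 519 genes. A scale was set with the mean of heterozygous replicates 2 to 4 at 0% and the deficient mean at 100%. On it, heterozygous replicate 1 had a median position of 103% over the 519 genes (quartiles 73.3% and 129%). Over all genes tested its median was 109%, so a position near the deficient mean is not particular to the 519. Heterozygous replicate 1 was nearer to the deficient libraries in 453 genes and beyond the deficient mean in 272. The wildtype libraries, which entered the fit only through the filter on low counts, the scaling and the estimate of spread, had medians of 92.8% and 73.8% and were nearer to the deficient libraries in 475 and 445 genes. All 3 were nearer to the deficient libraries in 377 genes. The same counts over all genes tested are not given here. Deficient replicate 4, set against heterozygous replicate 1 of the same litter date, differed in the direction of the call in 227 of the 519 genes. In 6 genes all 3 libraries stood nearer to heterozygous replicates 2 to 4. These were Taf4b, Ddc, the complement gene C1qc, the lysosomal protease gene Ctss, the protein-coding gene Rab5if and the pseudogene Gm17709. The last 3 were named after their values were seen. Some passed narrowly: heterozygous replicate 1 lay at 49.98% in Rab5if. Wildtype replicate 2 lay at 48.9% in C1qc and 46.0% in Gm17709, and wildtype replicate 1 at 43.4% in Ctss.

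**Figure D3:**
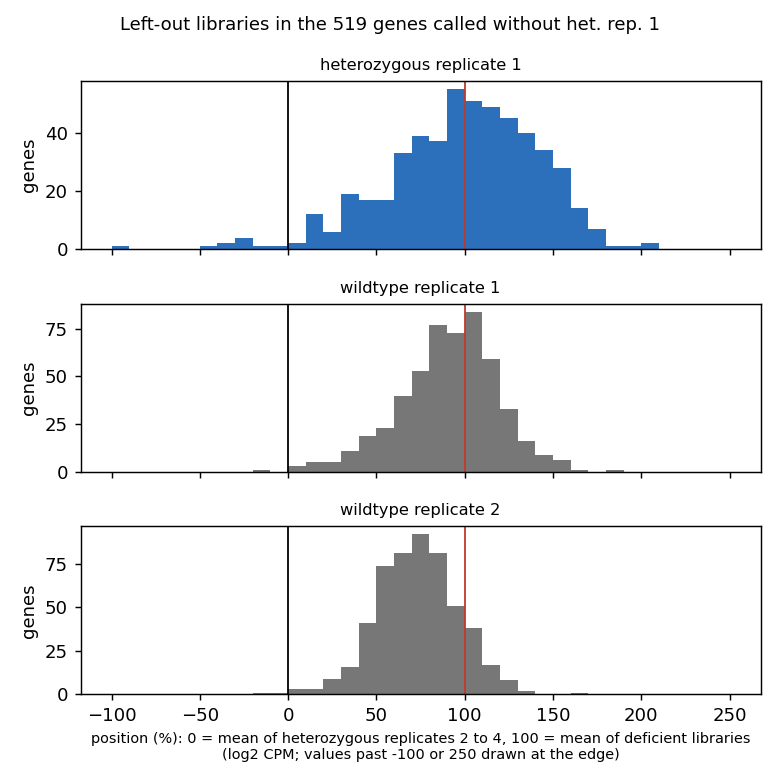
Histograms over the 519 genes called without heterozygous replicate 1 show the position (%) of 3 libraries between the mean of heterozygous replicates 2 to 4 (0, black line) and the deficient mean (100, red line), on log2 CPM. The bulk of each histogram lies nearer to the deficient mean. Medians are 103% for heterozygous replicate 1 (109% over all genes tested) and 92.8% and 73.8% for wildtype replicates 1 and 2.

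Litter date did not separate the genotypes completely, so differences could also be read within a date. January 29 holds deficient replicates 1 and 2 and heterozygous replicate 4, March 7 holds deficient replicate 4 and heterozygous replicates 1 to 3, and March 1 holds no heterozygous library. Without heterozygous replicate 1, all 306 higher and all 213 lower genes had the direction of their call within both dates, which are the libraries that called them. The difference in mean log2 CPM of Taf4b was -1.99 within January 29 and -1.62 within March 7 (-1.80 without heterozygous replicate 1). For Ddc these were 0.78, 0.72 and 0.67, and for Rnf10 0.92, 0.74 and 0.88. For Itfg2 they were -0.58, -0.66 and -0.75, and for Aars2 -0.62, -0.42 and -0.39. Within March 7, leaving out heterozygous replicate 1 moved Zfp541 to -2.22 from -0.88, Dppa5a to 1.18 from 0.69 and Rpl6 to 0.84 from 0.60, beside January values of -1.34, 1.05 and 0.96.

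The genes described next were taken by smallest p among those without overlap between the 4 deficient and 4 heterozygous libraries, a choice that itself places heterozygous replicate 1 with its own group. Even so it lay nearer to the deficient mean than to heterozygous replicates 2 to 4 in some of them, at 71.4% of the way in Tmf1, 61.3% in Ncl, 54.6% in Ranbp1 and 51.4% in Magoh. The promoters of 4 of these genes are shown because TFIID acts at core promoters: each is the stretch of 250 bases before the RefSeq start of the gene (GRCm38.p6), 5′ to 3′ on the gene's strand, and capitals mark matches to TATAAA or CCAAT on either strand.

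Rnf10 (chr5:115272896-115273145, minus strand): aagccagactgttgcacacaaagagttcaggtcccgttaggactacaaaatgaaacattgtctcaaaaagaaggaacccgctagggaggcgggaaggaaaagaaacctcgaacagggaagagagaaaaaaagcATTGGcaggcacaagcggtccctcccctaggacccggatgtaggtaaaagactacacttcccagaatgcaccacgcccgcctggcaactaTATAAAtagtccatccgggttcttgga

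Ddc (chr11:11898145-11898394, minus strand): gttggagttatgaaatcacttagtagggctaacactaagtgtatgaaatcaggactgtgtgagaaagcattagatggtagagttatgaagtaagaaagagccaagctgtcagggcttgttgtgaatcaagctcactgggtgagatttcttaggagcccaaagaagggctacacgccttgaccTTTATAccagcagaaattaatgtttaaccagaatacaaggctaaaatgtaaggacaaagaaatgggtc

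Itfg2 (chr6:128424911-128425160, minus strand): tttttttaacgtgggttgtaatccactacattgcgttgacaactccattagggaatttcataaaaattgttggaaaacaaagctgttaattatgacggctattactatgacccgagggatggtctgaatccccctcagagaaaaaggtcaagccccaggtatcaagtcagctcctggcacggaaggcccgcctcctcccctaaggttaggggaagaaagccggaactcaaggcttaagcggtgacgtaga

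Aars2 (chr17:45506591-45506840, plus strand): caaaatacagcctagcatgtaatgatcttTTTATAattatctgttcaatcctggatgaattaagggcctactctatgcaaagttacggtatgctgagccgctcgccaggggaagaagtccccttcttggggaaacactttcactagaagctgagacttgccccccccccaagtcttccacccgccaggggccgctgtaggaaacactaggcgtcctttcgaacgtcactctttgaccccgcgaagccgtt

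The Rnf10 stretch holds TATAAA beginning 27 bases before the start and CCAAT, on the opposite strand, at 117 bases before it. TATAAA lies on the opposite strand in the Ddc stretch, 68 bases before the start, and in the Aars2 stretch, 221 bases before it, and the Itfg2 stretch holds neither motif. Of 32851 RefSeq stretches of the same length, 12.4% hold TATAAA and 33.8% hold CCAAT on either strand. No stretch among these 4 holds GGGCGG, which 32.7% of all hold. Among the 10164 stretches matched to protein-coding genes tested here, the class of these 4, the shares were 6.33% for TATAAA, 37.1% for CCAAT and 59.4% for GGGCGG. A comparison of motifs between gene sets is void, because a stretch was matched for 68.5% of the protein-coding genes tested.

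Among the higher genes, Rnf10, a ubiquitin ligase of ribosomal proteins (ENSMUSG00000041740; chromosome 5, 115241412 to 115272898), stood at 236, 207, 245 and 185 CPM in deficient libraries, against 134, 123, 81.9 and 116 CPM in heterozygous libraries. All 4 deficient libraries were above all 4 heterozygous ones, and heterozygous replicate 1 was the highest of its group. Wildtype libraries, at 171 and 194 CPM, stood nearer to the deficient ones. The log2 fold change was 0.94 (SE 0.16, adjusted p = 0.263), and without heterozygous replicate 1 Rnf10 rose by 1.07 (SE 0.16, adjusted p = 0.0354). Ddc, the decarboxylase that makes dopamine and serotonin (ENSMUSG00000020182; chromosome 11, 11814101 to 11898144), stood at 28.7, 34.2, 27.8 and 30.0 CPM, against 17.1, 19.0, 18.7 and 18.3 CPM in heterozygous libraries. Heterozygous replicate 1 was the lowest library of all, and wildtype libraries stood at 19.9 and 19.5 CPM, with the heterozygous ones. Its log2 fold change was 0.73 (SE 0.13, adjusted p = 0.287) with and 0.74 (SE 0.14, adjusted p = 0.0436) without that replicate, and it lay between 0.66 and 0.78 whichever library was left out. Rraga, a Rag GTPase that signals amino acids to mTORC1, had log2 fold changes of 0.98 with and 1.04 without heterozygous replicate 1, and Dpagt1, which starts N-glycan assembly, had 0.62 both times. Cops5, the catalytic subunit of the COP9 signalosome, stood at 0.46 with and 0.53 without it. Changes were smaller with that library in Kifc1, a spindle kinesin with a close copy in the genome (2.19 and 2.60), the Ran cofactor Ranbp1 (0.83 and 1.02), nucleolin Ncl (0.64 and 0.81), the exon junction subunit Magoh (0.59 and 0.73) and the membrane protein gene Plp2 (0.54 and 0.67). Adjusted p was 0.287 for each of the 8 genes from Rraga to Plp2 with all libraries, and all 8 rose without heterozygous replicate 1 (0.0422 to 0.0496). Wildtype replicate 1 stood nearer to the deficient mean than to heterozygous replicates 2 to 4 in all 8. Wildtype replicate 2 did so except in Cops5 and Magoh (42.8% and 49.1% of the way). The strand setting of the counting was not given. Rnf10, Ddc, Dpagt1, Cops5, Ranbp1 and Plp2 overlap other genes on the opposite strand, so their reads are uncertain.

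Among the lower genes, Itfg2, a subunit of the KICSTOR complex that controls mTORC1 (ENSMUSG00000001518; chromosome 6, 128409444 to 128424931), stood at 23.2, 22.9, 22.4 and 22.6 CPM in deficient libraries, against 31.7, 39.0, 37.2 and 34.6 CPM in heterozygous libraries. Deficient libraries lay close together and below every heterozygous one, and wildtype libraries, at 28.3 and 29.0 CPM, lay between the groups. The log2 fold change was -0.64 (SE 0.13, adjusted p = 0.287), and without heterozygous replicate 1 Itfg2 fell by 0.65 (SE 0.13, adjusted p = 0.0436). Aars2, the mitochondrial alanyl-tRNA synthetase (ENSMUSG00000023938; chromosome 17, 45506841 to 45520843), stood at 22.9, 22.1, 23.9 and 28.4 CPM, against 39.7, 34.7, 39.7 and 34.7 CPM in heterozygous libraries. Heterozygous replicate 1 shared the highest value of its group, and wildtype libraries stood at 40.4 and 40.7 CPM. The log2 fold change of Aars2 was -0.61 (SE 0.13, adjusted p = 0.287) with that replicate and -0.54 (SE 0.15, adjusted p = 0.0652) without it, so this difference was slightly larger with the library. Cdk13, a kinase of the RNA polymerase II tail, stood at 32.5, 55.2, 29.6 and 56.3 CPM, against 90.6, 84.7, 85.5 and 81.5 CPM. Its groups did not overlap, but wildtype libraries, at 23.7 and 30.9 CPM, stood with the low deficient ones. Its log2 fold change was -0.98 (adjusted p = 0.287) with and -0.91 (adjusted p = 0.0592) without heterozygous replicate 1. The same near independence held for the Rab activator Dennd5a (-1.01 and -1.03), the semaphorin receptor Plxnd1 (-0.94 and -0.87), the formin Fmnl2 (-1.01 and -1.05), the nuclear zinc finger gene Zfp318 (-1.04 and -1.09) and the membrane protein gene Tmem245 (-0.70 and -0.69), while the Golgi protein gene Tmf1 moved to -0.98 from -0.87. Of these, Dennd5a, Fmnl2, Zfp318 and Tmf1 fell without that library (adjusted p = 0.0354 to 0.0469), and Plxnd1 and Tmem245 missed the threshold (0.0569 and 0.0505). In each gene from Dennd5a to Tmf1 both wildtype libraries stood nearer to the deficient mean than to heterozygous replicates 2 to 4. Their positions on the scale above ran from 55.5% (Plxnd1) to 174% (Tmem245). Itfg2 overlaps Nrip2 on the opposite strand, and Cdk13, Fmnl2, Zfp318 and Tmem245 also overlap genes there, so their reads are uncertain for the same reason. Some genes named in later paragraphs, such as Rpl15 and Eif3m, overlap others in the same way.

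**Figure D4:**
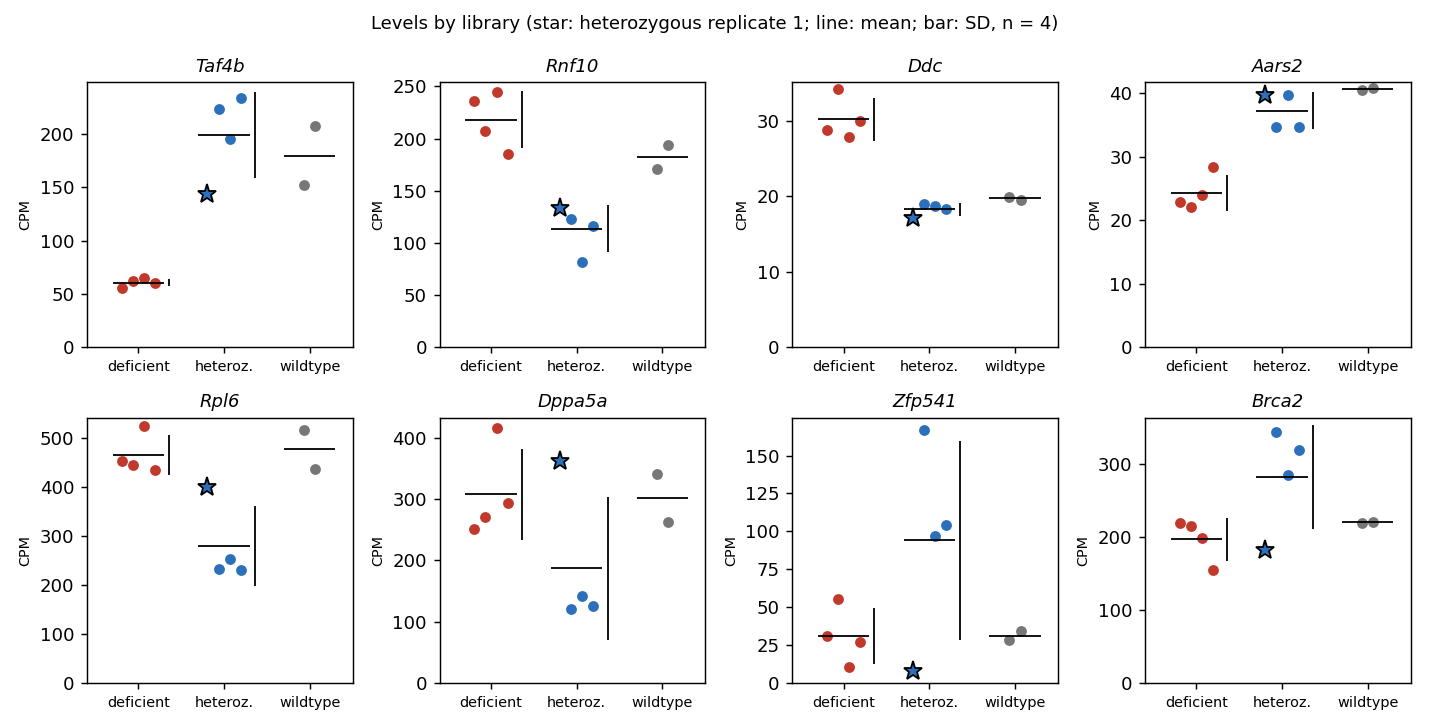
CPM of 8 genes in each library by genotype, with deficient libraries in red, heterozygous in blue and wildtype in grey; lines are means, bars are SD (n = 4) and the star is heterozygous replicate 1. In Taf4b, Rnf10, Ddc and Aars2 the star lies with its own group, while in Dppa5a, Zfp541 and Brca2 it lies among or beyond the deficient libraries and in Rpl6 it lies nearer to them than to its group.

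Pluripotency genes stood mostly higher in deficient libraries, and more so once heterozygous replicate 1 was left out. That library was set apart as less advanced in meiosis, so a larger difference in these genes without it follows from that choice. Of 36 tested genes of pluripotency and early germ cells, 30 had a positive log2 fold change with a median of 0.39, beside 44.9% and -0.05 over all genes, and no gene was called. Without the library the median was 0.81, beside 0.00 over all genes, and 4 genes rose, beside 1.53% of all genes. Dppa5a, a marker of pluripotent cells, stood at 251, 270, 415 and 294 CPM in deficient libraries, against 361, 120, 141 and 125 CPM in heterozygous libraries. Only heterozygous replicate 1 overlapped the deficient range. Its log2 fold change was 0.72 (SE 0.34, adjusted p = 0.429) with and 1.30 (SE 0.19, adjusted p = 0.0343) without that library. Nanog, a core pluripotency factor, stood at 41.1, 18.6, 96.9 and 39.2 CPM, against 89.4, 13.8, 14.7 and 21.6 CPM. The highest values were deficient replicate 3 and heterozygous replicate 1, and the log2 fold change went with them: 0.49 with all libraries, 1.59 (adjusted p = 0.0717) without heterozygous replicate 1 and -0.06 without deficient replicate 3. Pou5f1 behaved alike at 0.50 with all libraries and 1.15 (adjusted p = 0.0605) without heterozygous replicate 1, as did the germ cell RNA-binding gene Nanos3 (0.72 and 1.10, adjusted p = 0.0613). Dppa3, a maternal-effect gene of the germ line, moved to 0.90 (adjusted p = 0.0469) from 0.49. Tdh, the threonine dehydrogenase of mouse pluripotent cells, was at 186, 129, 363 and 221 CPM, against 332, 67.9, 104 and 93.0 CPM, and its log2 fold change of 0.59 became 1.39 (adjusted p = 0.0480). Lefty1, an inhibitor of Nodal, was the 1 listed gene lower without overlap, at 0.346, 0.262, 0.230 and 0.451 CPM, against 1.72, 0.546, 1.37 and 0.846 CPM, and here heterozygous replicate 1 enlarged the difference (-1.78 with and -1.46 without it, adjusted p = 0.287 and 0.0668).

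Meiotic genes mirrored this, and here too a larger difference without heterozygous replicate 1 follows from its choice as less advanced. Over all genes tested the median log2 fold change was -0.05, and 1.07% fell without that library. Of 41 recombination genes, 34 had a negative log2 fold change (median -0.52, and -0.76 without heterozygous replicate 1), none was called with all libraries and 4 fell without it. The 21 genes that build meiotic cohesin, the chromosome axis and the synaptonemal complex gave 17 negative values (median -0.42 and -0.63), with 0 and 2 calls. Brca2, which loads recombinases onto DNA breaks, stood at 219, 215, 198 and 154 CPM in deficient libraries, against 182, 343, 285 and 319 CPM in heterozygous libraries. Heterozygous replicate 1 lay inside the deficient range and the others lay above it. The log2 fold change was -0.52 (SE 0.19, adjusted p = 0.379) with and -0.64 (SE 0.13, adjusted p = 0.0459) without it. Zfp541, a chromatin factor of meiotic prophase, stood at 30.6, 55.3, 10.2 and 27.2 CPM, against 7.77, 167, 97.1 and 104 CPM. Heterozygous replicate 1 was the lowest of all libraries, and the log2 fold change of -1.61 (adjusted p = 0.409) became -1.95 (adjusted p = 0.0474) without it. Stag3, the meiotic cohesin subunit, changed from -0.49 to -0.61 and fell (adjusted p = 0.0452) when that library was left out, as did Gm960, also named Top6bl, the partner of the meiotic break-forming enzyme SPO11 (-1.14 and -1.44, adjusted p = 0.0452). Terb2, which attaches telomeres to the nuclear envelope, stood at -0.67 and -0.80, its partner Sun1 at -0.29 and -0.34, the recombinase Dmc1 at -0.61 and -0.89, and the axis protein gene Sycp3 at -0.42 and -0.72 with and without it, none past the threshold (adjusted p = 0.0789 to 0.735). The meiotic cohesin Rec8 stood at -0.13 and -0.25. With the stage score as a covariate Sycp3, Dmc1 and Rec8 had positive log2 fold changes of 0.40, 0.08 and 0.15, all uncalled. The score is itself built from meiotic recombination genes in these libraries. A shift of meiotic genes toward or past 0 can follow from that, and no conclusion is drawn from it.

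Genes of entry into meiosis and of germ cell identity were split in direction with all libraries. Stra8, which switches on the meiotic programme, stood at 650, 991, 237 and 606 CPM in deficient libraries, against 239, 939, 822 and 730 CPM in heterozygous libraries. The low libraries were deficient replicate 3 and heterozygous replicate 1, and the log2 fold change was -0.14 (SE 0.43, adjusted p = 0.901). The RNA-binding genes Dazl and Ddx4 stood at 0.03 and -0.10 with and 0.04 and -0.19 without that library, uncalled, and the piRNA helicase gene Tdrd9 at -0.60 and -0.81 (adjusted p = 0.498 and 0.0929). In the list of meiotic initiation and signalling genes, 13 of 26 were positive (median -0.03), and without heterozygous replicate 1, 10 were positive (median -0.09) and 1 fell. That gene, Gm4969, also named Meiosin, encodes the partner of STRA8, and its log2 fold changes were -1.36 and -1.68 (adjusted p = 0.411 and 0.0491). Among 25 germline RNA-binding and piRNA pathway genes 16 were negative with all libraries and 19 without that library (median -0.07 and -0.19), none called. The BMP target Id2, at 0.53 with and 0.62 without it, was higher without overlap, uncalled (adjusted p = 0.346 with all libraries). The BMP target Id1, at 0.62 and 0.52, was enlarged by that library. Of 20 oocyte differentiation genes 12 were positive with all libraries and 11 without heterozygous replicate 1 (median 0.16 and 0.41), and the 1 called was Taf4b, which is on this list. Nobox, a transcription factor of the oocyte and 1 of its 8 negative genes, stood near the limit of detection at 0.189, 0.734, 0.460 and 0.954 CPM in deficient libraries, against 1.08, 1.07, 1.03 and 1.52 CPM in heterozygous libraries, a log2 fold change of -0.99 (adjusted p = 0.402) without overlap. Of 21 TFIID genes 10 were positive, and Taf4b alone was called; Tbpl1, which encodes a TBP-like factor, was higher without overlap (0.39 and 0.50, adjusted p = 0.379 and 0.0707).

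Genes of protein synthesis and turnover had mostly positive log2 fold changes, by small amounts. Over all genes tested 44.9% were positive, 3.31% were higher without overlap, and 1.53% rose without heterozygous replicate 1. In the list of cytosolic ribosomal proteins, 76 of 84 genes had a positive log2 fold change with a median of 0.27. Without heterozygous replicate 1 it was 83 of 84 with a median of 0.48, and 22 rose. Of the 84, 2 were higher without overlap, a share no larger than that of all genes. Rpl6, a protein of the large subunit, stood at 453, 445, 524 and 434 CPM in deficient libraries, against 400, 233, 252 and 231 CPM in heterozygous libraries. No library overlapped, but heterozygous replicate 1 stood nearer to the deficient ones, as did both wildtype libraries at 516 and 436 CPM. The log2 fold change was 0.73 (SE 0.18, adjusted p = 0.297) with and 1.00 (SE 0.12, adjusted p = 0.0215) without it. Rpl15 moved to 0.70 (adjusted p = 0.0422) from 0.49 and Rpl36al to 1.10 (adjusted p = 0.0436) from 0.96, and processed pseudogenes make counts of this family uncertain. Mitochondrial ribosomal proteins depended less on that library: 69 of 78 genes were positive (median 0.20 with and 0.26 without it), 15 did not overlap (all higher), and 4 rose without it. Mrps14, of the small mitochondrial subunit, stood at 0.36 and 0.40 (adjusted p = 0.346 and 0.0655), Mrpl36 at 0.46 and 0.59 (adjusted p = 0.0436 without the library) and Mrpl30 at 0.39 and 0.49. Proteasome genes were positive in 37 of 41 (median 0.23 and 0.38), with 10 higher without overlap and 4 that rose without the library. Psma6, a subunit of the proteasome core, stood at 473, 535, 517 and 455 CPM, against 395, 342, 372 and 332 CPM, all deficient libraries above all heterozygous ones, with log2 fold changes of 0.46 and 0.55 (adjusted p = 0.296 and 0.0452), and Psma1 stood at 0.40 and 0.46. Of 52 translation initiation factor genes 38 were positive (median 0.12 and 0.24), with 4 higher and 1 lower without overlap. Eif3m rose without heterozygous replicate 1 (0.48 and 0.65, adjusted p = 0.0433). Eif4ebp2, a repressor of the cap-binding factor, went the other way at 47.5, 42.0, 54.4 and 34.2 CPM, against 97.7, 68.9, 62.4 and 87.1 CPM, without overlap, and heterozygous replicate 1, the highest, enlarged its difference (-0.83 with and -0.67 without it, adjusted p = 0.287 and 0.0639).

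Energy metabolism and cell division showed the same mixture, to be read beside the same shares of all genes tested. These were 44.9% positive, 3.31% higher without overlap, and 1.53% that rose and 1.07% that fell without heterozygous replicate 1. Genes higher without overlap numbered 0 in glycolysis, 0 in cholesterol synthesis, 3 in mitotic G2 and M phase and 4 in DNA replication. Of 81 nuclear-encoded respiratory chain genes 68 were positive (median 0.14 and 0.19), 12 did not overlap and 7 rose without heterozygous replicate 1, among them the ATP synthase genes Atp5g1 (0.51 and 0.68, adjusted p = 0.0433) and Atp5c1 (0.45 and 0.61, adjusted p = 0.0436) and the complex I gene Ndufs4 (0.38 and 0.49, adjusted p = 0.0459). Mitochondrially encoded genes had no common direction (8 of 13 positive, median 0.03 and 0.25): mt-Co1 stood at 0.46 and 0.59, and mt-Atp6 at -0.63 and -0.45, uncalled. Glycolysis genes were positive in 17 of 20 (median 0.19 and 0.47), with 1 call without heterozygous replicate 1. Gapdh, which has many pseudogenes, went against its list at 5.01, 3.93, 5.95 and 5.35 CPM, against 30.9, 14.8, 4.60 and 4.43 CPM. Heterozygous replicates 1 and 2 alone were high, and the log2 fold change of -1.44 (adjusted p = 0.383) became -0.61 (adjusted p = 0.354) without replicate 1. Cholesterol synthesis genes were positive in 16 of 23 (median 0.19 and 0.39), and the sterol regulator Insig1 rose without that library (0.44 and 0.75, adjusted p = 0.0436). Among genes of mitotic G2 and M phase 33 of 40 were positive (median 0.25 and 0.44) and 4 rose without it, including the kinesin Kif20a (0.57 and 0.79, adjusted p = 0.0478) and the spindle midzone gene Prc1 (0.50 and 0.74, adjusted p = 0.0469), while the cyclin Ccnb2 stood at 0.52 and 0.69 (adjusted p = 0.0577). Mki67, a marker of cycling cells, stood at 140, 86.2, 183 and 82.1 CPM, against 210, 168, 71.2 and 168 CPM, with overlap and a log2 fold change of -0.33 that was -0.09 without heterozygous replicate 1. DNA replication genes were positive in 31 of 43 (median 0.16 and 0.28), and without the library 1 rose and 1 fell. The clamp loader Rfc1 was the gene that rose (0.49 and 0.68, adjusted p = 0.0433), and the clamp Pcna stood at 0.30 and 0.40. Of 56 replication-dependent histone genes 37 were positive (median 0.37 and 0.45), 8 did not overlap and 3 rose without it: Hist1h2bc (0.97 and 1.45), Hist1h3c (0.98 and 1.43) and Hist1h3e (0.95 and 1.22), all at adjusted p = 0.0436 or 0.0452, while Hist1h2bg stood at 0.89 and 1.00 (adjusted p = 0.0649). These transcripts lack poly(A) tails and have close copies, so their counts are uncertain.

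**Figure D5:**
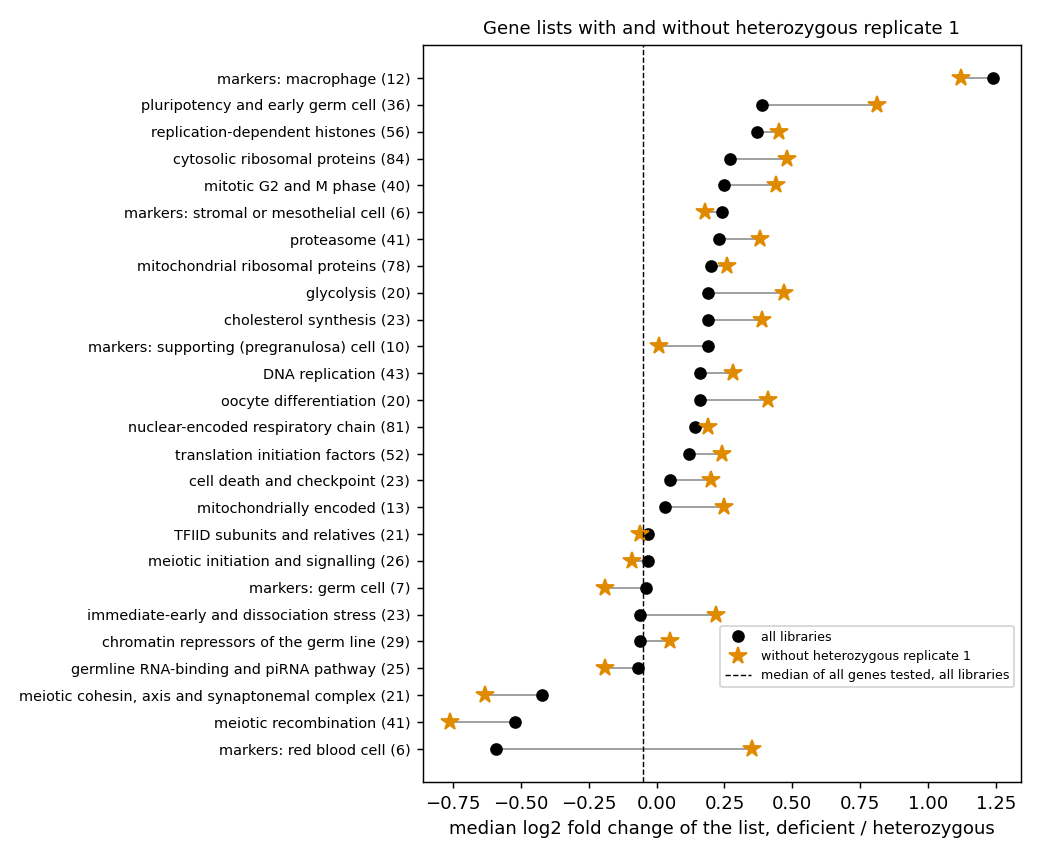
Median log2 fold change of deficient over heterozygous libraries in each gene list (tested members in brackets), from all libraries (black) and without heterozygous replicate 1 (orange stars), beside the median of all genes (-0.05, dashed); the endothelial marker list, with 5 tested members, is not drawn. Leaving out that library moves the pluripotency median to 0.81 from 0.39 and the recombination median to -0.76 from -0.52, but moves the macrophage median to 1.12 from 1.24.

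Among genes of stress, chromatin and cell death, the chaperone Hsp90aa1 rose without heterozygous replicate 1 (0.41 and 0.65, adjusted p = 0.0433). The heat-shock gene Dnajb1 stood at -0.43 with and -0.30 without that library. The immediate-early and dissociation stress list was split (10 of 23 positive, median -0.06 and 0.22). The chromatin repressor list was split too (13 of 29 positive, median -0.06 and 0.05). Dnmt3a, a DNA methyltransferase, stood at 79.5, 70.0, 76.9 and 83.4 CPM in deficient libraries, against 112, 92.4, 106 and 104 CPM in heterozygous libraries, lower without overlap, with log2 fold changes of -0.42 and -0.34 (adjusted p = 0.332 and 0.110). The heterochromatin gene Cbx3 stood at 0.54 and 0.78 (adjusted p = 0.390 and 0.0512). In the cell death and checkpoint list 14 of 23 were positive (median 0.05 and 0.20). Cdkn1a, the p21 inhibitor of the cell cycle, stood at 46.1, 60.9, 57.2 and 34.2 CPM, against 26.6, 24.5, 32.3 and 29.9 CPM. All deficient libraries lay above all heterozygous ones with a log2 fold change of 0.81 with and 0.82 without heterozygous replicate 1 (adjusted p = 0.291 and 0.0580), but wildtype libraries, at 51.0 and 42.8 CPM, lay among the deficient ones. Bcl2l11, which encodes the cell death activator BIM, stood at 0.49 and 0.74 (adjusted p = 0.404 and 0.0506).

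Genes with the largest folds among those called without heterozygous replicate 1 mostly had smaller ones with it. They were chosen for their folds without that library, so smaller folds with it follow in part from the choice. Among those that fell, Stxbp5l, a regulator of vesicle fusion, stood at 1.73, 4.48, 0.986 and 1.46 CPM in deficient libraries, against 1.48, 16.1, 9.03 and 16.4 CPM in heterozygous libraries, and Lamb2, a laminin chain, at 76.0, 76.7, 29.6 and 42.9 CPM, against 25.5, 273, 165 and 194 CPM. In both, heterozygous replicate 1 lay within or below the low end of the deficient range, and their log2 fold changes moved to -2.62 from -2.31 and to -1.86 from -1.54. The lipid transporter Spns2, the sphingomyelinase Smpd3, the GTPase Rab39, the protease Prss50, the DNA polymerase Poln and the G protein-coupled receptor kinase Grk4 followed the same pattern, with log2 fold changes of -2.50, -2.48, -2.29, -1.96, -1.95 and -1.90 without the library (adjusted p = 0.0436 to 0.0489 for these 6). Poln shares its strand with the overlapping gene Haus3, and Spns2 and Smpd3 overlap Mybbp1a and Prmt7 on the other strand, so their reads are uncertain. Among those that rose, the phosphatase gene Ptpn22 had a log2 fold change of 0.36 with and 1.65 without it, since heterozygous replicate 1 held 64.6 CPM and the other heterozygous libraries 6.71 to 11.8 CPM. Trim12c (0.81 and 1.56), the mitochondrial carbonic anhydrase Car5b (0.71 and 1.32), the ETS factor Elf2 (1.03 and 1.30) and the muscle troponin Tnnt3 (1.41 and 1.69) also had smaller folds with that library. Srp54b, of the signal recognition particle, had 1.19 and 1.49 in the counts but 0.04 in TPM, and has near-identical copies, so its change is uncertain.

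The RNA of other cells in the sort was low, and macrophage genes were the markers that differed. The summed level of 7 germ cell markers was 4430 to 6070 CPM in deficient and 4230 to 5720 CPM in heterozygous libraries, and that of 10 supporting cell markers was 23.6 to 35.7 and 16.0 to 37.5 CPM. Sums of stromal markers were 3.88 to 16.2 and 7.51 to 10.7 CPM, and those of red blood cell markers 0.419 to 15.3 and 0.837 to 11.6 CPM. Endothelial sums, 95.5 to 378 and 70.7 to 387 CPM, were nearly all Pecam1, which germ cells also express and which followed the pluripotency genes (0.43 with and 1.43 without heterozygous replicate 1). All 12 macrophage markers had a positive log2 fold change (median 1.24 with and 1.12 without that library). Of the 12, 7 were higher without overlap, beside 3.31% of all genes tested. Their summed level was 21.3 to 34.4 CPM in deficient and 9.11 to 18.0 CPM in heterozygous libraries, lowest in heterozygous replicate 1, and 17.3 to 21.8 CPM in wildtype libraries, and no macrophage marker was at 0 in every library of a group. C1qc, a complement subunit, stood at 2.80, 2.23, 2.23 and 1.35 CPM, against 0.524, 0.988, 0.660 and 0.710 CPM, every deficient library above every heterozygous one, and its log2 fold changes were 1.57 (SE 0.30, adjusted p = 0.287) with and 1.49 (adjusted p = 0.0464) without heterozygous replicate 1. Fcer1g, an Fc receptor chain, stood at 1.80 and 1.79 (adjusted p = 0.287 and 0.0469) and C1qa at 2.02 and 1.83 (adjusted p = 0.314 and 0.0668). Ctss, expressed by macrophages, stood at 2.11 and 1.85 (adjusted p = 0.287 and 0.0452), Rab5if at 0.50 and 0.61 and Gm17709 at 0.86 and 0.98. The part of macrophage RNA in the other differences was not tested.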

How the data were processed

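Bulk RNA-seq libraries of sorted germ cells were grouped by the genotype in their labels. Per the submitters' processing notes, the authors trimmed with Trim Galore 0.5.0, checked reads with FastQC 0.11.5, aligned with HISAT2 2.1.0 on GRCm38, used SAMtools 1.9, made the deposited counts with featureCounts of Subread 1.6.2 and made the TPM columns, also deposited, with StringTie 1.3.3b. How the counting treated strand, and with which annotation release, is not given in the sources used. The authors' deposited DESeq2 table was not used here.

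All 55536 genes of the table matched the GENCODE annotation of GRCm38. Genes were kept by filterByExpr (20317 tested), scaled by TMM and fitted with edgeR 4.0.16 (quasi-likelihood, R 4.3.3) over all 10 libraries as 3 genotypes. A call is a Benjamini-Hochberg adjusted p under 0.05, and adjusted p-values of genes are edgeR's. SE derives from the F statistic. Log2 CPM has a prior count of 2. The test was checked on simulated counts.

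Alternatives were RLE scaling, no filter, DESeq2 1.42.0, litter date, replicate number or stage score as a term, 2 genotypes only, limma 3.58.1 on log2(TPM + 1) or log2(TPM + 0.1), the fit without the 3 libraries low in ribosomal-RNA-like reads (deficient replicates 2 and 4 and heterozygous replicate 3), and each library left out. With 1 wildtype library left, edgeR assumes that it varies like the other groups. No library was taken for a copy of another, since chi-square per degree of freedom between libraries was at least 9.61.

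Named genes were Taf4b, every gene called, per direction 10 protein-coding genes by smallest p without overlap and 10 by largest fold among those called without heterozygous replicate 1 (both at 5 CPM or more), up to 3 per list by smallest p, and 10 germ cell genes; 97 of 124 are given, and the other 27 are not reported here. Ctss, Rab5if, Gm17709 and Gm4969 were chosen after their values were seen. Members, lists and the separate treatment of heterozygous replicate 1 were chosen with earlier results of these data known.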

Additional observations from a re-analysis of the deposited data

Results flagged for a closer look

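In groups of 4, the lowest or highest library was set against Dixon's 95% critical value. Of 256 groups of 4 tested, 27 held an outlying library, and 21 of the 27 were heterozygous replicate 1. Chance flags about 1 in 20 groups, but many of these genes were named because they were called once heterozygous replicate 1 was left out, so the 21 cannot be read against that rate.

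Heterozygous replicate 1 stood above the next library of its group in Dppa5a (361 CPM, next 141), Nanog (89.4, next 21.6), Pou5f1 (122, next 45.2), Tdh (332, next 104), Ptpn22 (64.6, next 11.8), Pecam1 (380, next 91.9) and Car5b (14.3, next 5.64). It stood above them as well in Ncl (1310, next 962), Rpl6 (400, next 252), Rpl15 (558), Ndufs4 (166, next 140), Rfc1 (159, next 115) and Insig1 (171, next 99.0), and in Gm49450 (3.64, next 3.04) and Gm17709 (2.45, next 2.03). It stood below them in Gm960 (4.40, next 28.8). The mean log2 CPM of its recombination genes (4.34, next 6.10), its cohesin and axis genes (5.18, next 6.75), its pluripotency genes (5.95, next 4.82) and its piRNA pathway genes (5.70, next 6.33) lay outside its group, as did its stage score (-1.61, next 1.28).

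Deficient replicate 3 stood above its group in Tnnt3 (15.5 CPM, next 7.00) and Cbx3 (88.2, next 73.7). Within the deficient group, replicate 4 had the highest mean of immediate-early genes (5.30 log2 CPM, next 4.38), while heterozygous replicates 1 and 3 stood at 5.31 and 5.04. Heterozygous replicate 3 was low in mt-Co1 (1500 CPM, next 4100) and in the mitochondrially encoded genes as a list (6.15 log2 CPM, next 7.62). Heterozygous replicate 4 was high in Nobox (1.52 CPM, next 1.08).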

How the results depend on the processing

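The count of 3 calls became 6 with RLE scaling (5 higher, 1 lower) and with the stage covariate, 14 without a filter, 224 with DESeq2 (129 higher, 95 lower), 97 without the 3 libraries low in ribosomal-RNA-like reads (5 higher, 92 lower), and 1 with TPM at a pseudocount of 0.1. It was 0 with litter date as a term, 0 with the replicate block (both edgeR) and 0 with TPM at a pseudocount of 1 (limma), where edgeR on all libraries had 2421 genes at an unadjusted p under 0.05. Leaving out 1 library gave 0 to 519 calls. The 519 calls without heterozygous replicate 1 became 3040 without a filter, 2672 with DESeq2, 1 with litter date, 239 with the replicate block, 0 with the stage covariate, 4 with 2 genotypes only, 1199 (358 higher, 841 lower) and 964 with TPM at pseudocounts of 1 and 0.1, and 3974 (1852 higher, 2122 lower) without the 3 libraries; leaving out 1 more gave 1 to 2080. The cause was not tested.

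Taf4b missed the threshold with litter date (-1.83), the replicate block (-1.69) and TPM at a pseudocount of 1 (-1.78), and lay between -1.80 and -1.59 with 1 library left out. The stage difference lay between -1.59 and -0.40. Replicate numbers did not pair the samples: deviations of same-numbered libraries correlated at -0.1694, 0.3823, -0.4208 and -0.2207.

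Of 2341 values for 118 gene results, 1988 kept direction and side of the threshold, 105 gained and 230 lost it, and 18 reversed; of 513 list medians, 491 moved by less than the spread. Reversed were Gm49450 in TPM (-1.46 and -1.91) and Dazl in TPM (-0.15 and -0.15) and without deficient replicate 2 (-0.015). With the stage covariate Sycp3 (0.40), Stra8 (0.42), Ddx4 (0.06), Rec8 (0.15) and Dmc1 (0.08) reversed. That covariate is built from recombination and pluripotency genes, so reversals of meiotic genes can follow from it. Without deficient replicate 3, Ptpn22 (-0.0013), Nanog (-0.06), Stra8 (0.15) and Rec8 (0.039) reversed. Without heterozygous replicate 2, 3 or 4, Stra8 gave 0.06 and 0.015 (2 and 3) and Rec8 0.042 and 0.0035 (2 and 4). With 1 library left out, the range was up to 1.65 in Ptpn22, up to 1.59 in Nanog, up to 0.12 in Dazl, down to -0.46 in Stra8 and down to -0.31 in Rec8.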

Other observations

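Genes at an unadjusted p under 0.05 differed in kind between the directions. Of the 977 higher genes, 189 (19.3%) were processed pseudogenes and 4 (0.409%) were unconfirmed transcripts of the TEC class. Of the 1444 lower genes, 110 (7.62%) were processed pseudogenes and 186 (12.9%) were TEC. Over all genes tested the shares were 8.71% and 4.53%. The higher genes had a median level of 26.7 CPM and the lower genes 3.36 CPM, beside 7.21 CPM over all. Whether pseudogene reads came from parent genes was not tested.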
